A study of Mus musculus with 10 samples.

Results

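The genes examined here encode the enzymes that write and erase acetyl and methyl groups on histones. They were taken by name from the deposited peak annotation: symbols that begin with Hdac, Sirt, Kat, Kdm, Kmt, Setd or Prmt followed by a number (or, for Setd, the letter b), together with Ezh1, Ezh2, Ep300 and Crebbp. This rule uses names and no measured values. It gave 314 peaks in 69 genes, of 61581 peaks in all. Hdac4 had the most, 17, and 11 genes had 1 each. Chromatin accessibility had been measured by ATAC-seq, in which a transposase cuts open DNA and inserts sequencing adapters, in 10 libraries of mouse naive CD4 T cells. All mice had the genotype Satb1fl/fl x CD4-CreERT2wt/+, that is, floxed alleles of the chromatin organiser Satb1 and a Cre recombinase that tamoxifen activates and that CD4 regulatory sequence drives, so the deletion is limited to cells that use this sequence and need not be complete. The 5 KO libraries came from mice given tamoxifen and the 5 WT libraries from mice of the same genotype whose treatment label is only WT. Values of single libraries are given in the order of their labels, Sample_2268_KO to Sample_2272_KO and Sample_2273_WT to Sample_2277_WT. Each library was made from 60000 cells sorted from spleen and lymph node as CD3+CD4+CD25-CD44low/-CD62L+. The labels give no age, sex, batch, dose or time of tamoxifen, and effects of tamoxifen and of Satb1 loss cannot be told apart.

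Acetyltransferases place acetyl groups on histone lysines, which loosens the contact with DNA and recruits bromodomain proteins, and deacetylases of the Hdac and Sirt families remove them. Lysine methyltransferases with a SET domain place methyl groups whose meaning depends on the residue, with methylation of histone H3 lysine 4 marking active promoters and enhancers and that of lysine 27 marking genes silenced by Polycomb. The Kdm demethylases erase these marks, and the Prmt enzymes methylate arginines. In T cells these enzymes take part in holding lineage genes shut in the naive state and opening them on differentiation, and SATB1 binds AT-rich DNA and is known to recruit histone deacetylases and acetyltransferases. Not every member acts on histones: Sirt3, Sirt4 and Sirt5 are mitochondrial, and Setd3 methylates a histidine of actin.

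Counts in peaks ranged from 673398 in Sample_2270_KO to 2184717 in Sample_2272_KO, with a median of 5 to 17 counts per peak, and the mitochondrial share of counts was 0.780% to 1.97%. The counts of Sample_2268_KO and Sample_2270_KO differed by less than the sampling noise (chi-square per degree of freedom 0.928, p = 1), as did those of Sample_2273_WT and Sample_2276_WT (0.980, p = 0.999). Each of these pairs was counted as 1 sample in every mean ± SD, so that n = 4 per group, whereas the test used all 10 libraries. The labels do not say that libraries came from separate mice, so p-values measure the spread between libraries, which may be technical. Satb1 itself, summed over its 26 peaks, stood at 411 to 444 CPM (counts scaled to a library total of 1000000) in KO and 353 to 392.3 CPM in WT (edgeR adjusted p = 0.0245). The deleted part of Satb1 is not named in the labels, so this sum does not check the groups. Of the marker lists, read as the summed CPM of promoter peaks, 6 of 7 T cell genes had such peaks (280 to 318 CPM in KO, 277 to 308 in WT; none for Trac), as did all 4 naive T cell genes (247 to 314 and 232 to 263). None of the 5 B cell genes had one. Promoter peaks were annotated to 2 of 5 myeloid genes (10.0 to 20.2 CPM in KO, 14.1 to 21.4 in WT; none for Csf1r, Lyz2 and Spi1), to 1 of 3 NK cell genes (Eomes, 13.6 to 27.9 and 12.9 to 23.7) and to 1 of 2 CD8 T cell genes (Cd8b1, 20.2 to 31.7 and 23.7 to 30.4). KO and WT ranges overlapped for each of these lists with a peak. In such bulk libraries a lower value from fewer cells of a type cannot be told apart from less signal per cell.

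The promoters of 4 genes with a site that was more open in KO (described below) are shown with that of Hdac9, to set the CpG-rich start sites usual in this group beside a start site that lacks them. Each window runs from 250 bases before to 50 bases after a start site (RefSeq, assembly GRCm38.p6, the build also called mm10), is read 5′ to 3′ along the gene, and has every CG dinucleotide in capitals. All lie on the minus strand except Kat6b. The windows are Kdm7a at chr6:39206724-39207023 (65 CG), Ezh2 at chr6:47594981-47595280 (31 CG), Hdac4 at chr1:92180292-92180591 (32 CG), the downstream one of 2 for Kat6b at chr14:21499535-21499834 (34 CG), and the upstream one of 2 for Hdac9 at chr12:34917046-34917345 (0 CG).
Kdm7a: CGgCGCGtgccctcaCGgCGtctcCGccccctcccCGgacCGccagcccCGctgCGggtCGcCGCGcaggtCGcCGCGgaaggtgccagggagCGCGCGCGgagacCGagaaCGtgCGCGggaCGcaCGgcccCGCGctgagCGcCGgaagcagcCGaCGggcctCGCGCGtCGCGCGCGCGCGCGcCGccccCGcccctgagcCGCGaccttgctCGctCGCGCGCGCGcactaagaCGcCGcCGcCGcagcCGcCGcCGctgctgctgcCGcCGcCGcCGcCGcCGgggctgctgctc
Ezh2: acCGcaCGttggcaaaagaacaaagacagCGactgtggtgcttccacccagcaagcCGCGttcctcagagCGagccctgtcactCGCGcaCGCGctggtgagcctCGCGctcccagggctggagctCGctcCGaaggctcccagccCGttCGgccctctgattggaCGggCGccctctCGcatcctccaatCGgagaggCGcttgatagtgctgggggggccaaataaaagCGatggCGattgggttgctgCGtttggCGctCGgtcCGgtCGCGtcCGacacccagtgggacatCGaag
Hdac4: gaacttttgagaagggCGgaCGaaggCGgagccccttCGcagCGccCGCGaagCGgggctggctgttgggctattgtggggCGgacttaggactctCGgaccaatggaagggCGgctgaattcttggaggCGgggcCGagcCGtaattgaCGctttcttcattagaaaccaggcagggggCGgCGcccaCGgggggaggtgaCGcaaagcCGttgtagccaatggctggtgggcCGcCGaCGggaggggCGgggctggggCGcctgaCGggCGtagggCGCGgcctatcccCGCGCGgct
Kat6b: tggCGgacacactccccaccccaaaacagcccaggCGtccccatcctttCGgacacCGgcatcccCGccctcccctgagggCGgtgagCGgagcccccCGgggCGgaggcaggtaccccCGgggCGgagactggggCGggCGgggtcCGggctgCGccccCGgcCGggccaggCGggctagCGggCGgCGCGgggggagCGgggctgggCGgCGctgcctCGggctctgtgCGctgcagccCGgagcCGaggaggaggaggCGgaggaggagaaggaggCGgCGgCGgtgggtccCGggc
Hdac9: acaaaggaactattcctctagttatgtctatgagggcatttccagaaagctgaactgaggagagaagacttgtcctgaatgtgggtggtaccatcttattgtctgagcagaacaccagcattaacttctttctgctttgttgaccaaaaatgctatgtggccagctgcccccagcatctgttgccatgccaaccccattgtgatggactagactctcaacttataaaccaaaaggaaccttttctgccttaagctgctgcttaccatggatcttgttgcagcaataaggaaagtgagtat
RefSeq promoter windows were matched for 57 of the 69 genes, 77 windows in all, and Setd1b was not among them. Their median was 21 CG and 61.3% GC, against 7 CG and 52.7% GC over all 32851 RefSeq windows. The sets are unlike: each member gene has a peak in these libraries, whereas the RefSeq windows cover 27025 genes with or without one. The differences here, and in the motif shares below, can therefore not be read as particular to these enzymes. Kdm7a had the most CG of the 77 member windows. Of the 5 windows printed, 4 overlap a deposited peak, and the Hdac9 window overlaps none. Both strands were also searched for 5 short motifs, none of which contains another. The ETS motif CCGGAAGT was in 6 of the 77 windows (7.79%, against 3.89% of all windows), the AP-1 motif TGANTCA in 8 (10.4% against 7.81%), the RUNX motif TGTGGTT in 2 (2.60% against 5.27%), the TCF/LEF motif CTTTGAN in 6 (7.79% against 15.96%) and the AT-rich AATATT in 2 (2.60% against 6.81%). None of these 5 motifs is in the windows printed above.

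Accessibility at the genes of histone-modifying enzymes differed little between KO and WT. Of the 314 peaks, 196 in 65 genes held enough counts to be tested, and 2 of them were higher in KO and 0 lower (edgeR, adjusted p under 0.05). One lies just upstream of Setd1b, a histone H3 lysine 4 methyltransferase, and the other inside Kdm7a, a demethylase. Over all 34910 tested peaks, 3.85% passed the test, 2.94% as higher in KO and 0.911% as lower, and 3.96% had KO libraries that did not overlap the WT libraries. Among the members 1.02% passed, and the same 2 peaks were the only ones without overlap. With no adjustment, 13 member peaks had a p under 0.05, 5 higher and 8 lower (6.63%, against 13.6% of all tested peaks). The log2 fold changes of the members ran from -0.65 to 1.18 with a median of -0.01, beside -0.01 over all tested peaks. In 124 of the 196 peaks the 95% interval of the difference lay within a 1.5-fold change in either direction (63.3%, against 57.5% of all tested peaks), and in 189 it lay within a 2-fold change.

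**Figure D1:**
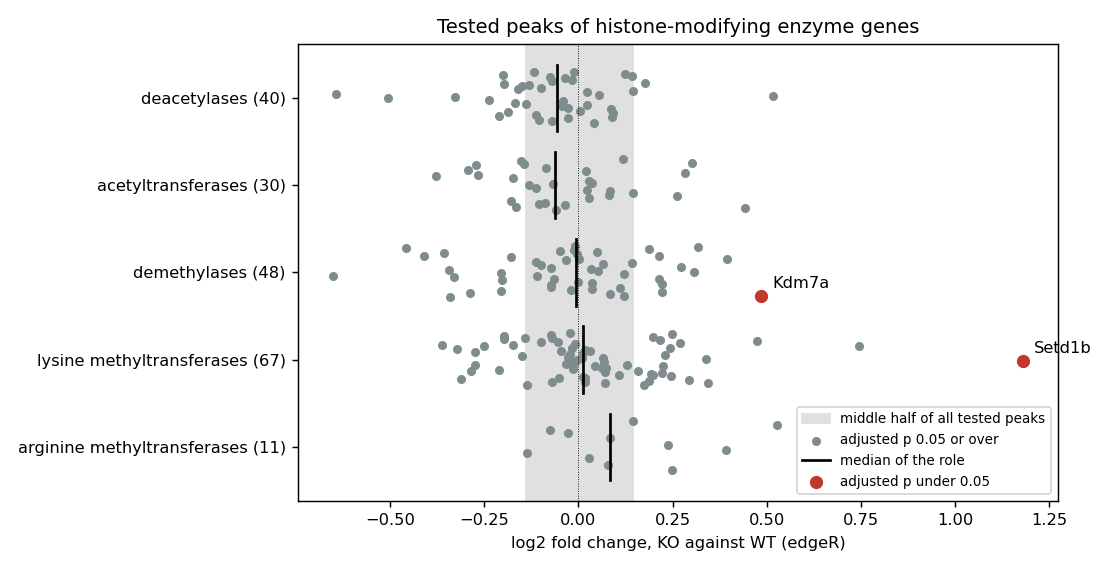
Log2 fold change of accessibility, KO against WT, of each of the 196 tested member peaks by enzyme role (edgeR). Points are peaks, black bars are role medians, red points passed the test, and the grey band runs from the lower to the upper quartile of all 34910 tested peaks; the 2 red points belong to Kdm7a (0.48) and Setd1b (1.18).

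Members were more often promoter peaks than the rest of the series: 111 of the 196 tested ones (56.6%) carried that annotation (within 3 kb of a start site), against 46.3% of all tested annotated peaks. Both member peaks that passed were promoter peaks, 1.80% of the 111, where 1.26% of all tested promoter peaks were higher and 0.341% lower. Outside promoters 0 of 85 tested members passed by edgeR (0 higher and 3 lower with an unadjusted p under 0.05), where 4.39% of all such peaks were higher and 1.4% lower. The filter on counts removed the other 118 members, none of which averaged above 7.03 CPM. Without it, 5 of 314 members were higher and 0 lower, where 1.99% of all 61581 peaks were higher and 0.671% lower. The 3 added peaks lie in introns of Ezh2, Hdac4 and Kat6b. Position does not by itself name the gene a peak acts on: 205 member peaks lie inside their own gene in RefSeq, 54 inside another gene only and 55 in none.

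Among the lysine methyltransferases (19 genes, 101 peaks, 67 tested), 1 peak passed the test, and it was the largest change of any tested member. Setd1b is the catalytic subunit of a COMPASS complex that methylates histone H3 lysine 4, on the plus strand of chromosome 5 from 123142193 to 123168630 in the deposited annotation. The peak at chr5:123141070-123141398 lies at -795 bp from its start site and within the body of the neighbouring gene Rhof in RefSeq. It had 42.4, 51.1, 43.3, 38.8 and 39.9 CPM in the KO libraries and 21.7, 21.5, 16.7, 17.2 and 16.2 CPM in the WT libraries. Every KO library was above every WT library. The means were 43.2 ± 5.56 CPM in KO against 18.5 ± 2.48 in WT (SD, n = 4), a 2.27-fold rise (95% interval 1.87 to 2.76, log2 fold change 1.18 ± 0.14 SE, edgeR adjusted p = 2.63e-10). No other peak of Setd1b passed. The upstream peak supplied 21.2% to 26.6% of the counts over the 10 peaks of Setd1b in the KO libraries and 10.53% to 13.2% in the WT libraries, and the other 9 peaks together held 141 ± 5.09 CPM in KO against 141 ± 5.30 in WT. Within 100 kb on either side, 0 of 21 other tested peaks, which are annotated to Hpd, Morn3, Psmd9, Rhof, Setd1b and Tmem120b, passed the test (smallest edgeR adjusted p = 0.219).

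Ezh2 encodes the catalytic subunit of Polycomb repressive complex 2, which methylates histone H3 lysine 27, and covers 47530274 to 47595338 of chromosome 6 (minus strand). A peak in an intron had at most 2 reads in any WT library. This peak, chr6:47561008-47561215 at 34123 bp from the start site, had 13, 8, 1, 15 and 25 reads in the KO libraries and 0, 2, 2, 1 and 1 reads in the WT libraries. In CPM these are 10.4, 8.34, 1.67, 7.98 and 12.48 in KO and 0, 1.10, 1.04, 0.715 and 0.676 in WT, where the count of 0 in Sample_2273_WT allows up to 3.26 CPM (3 counts). In 4 KO libraries the peak stood at 7.98 CPM or more, above every WT library. Sample_2270_KO, the library with the fewest counts, had a single read, which is above the measured WT values but below the 3.26 CPM that the count of 0 allows. The means were 8.71 ± 2.71 CPM in KO against 0.795 ± 0.348 in WT (SD, n = 4). Tested without the count filter, the peak was higher in KO by a log2 fold change of 3.37 (edgeR adjusted p = 1.65e-09). The next peak of the same intron, chr6:47561550-47561632, had 3.54 ± 1.32 and 2.45 ± 1.32 CPM and did not pass (adjusted p = 0.757). Over the Ezh2 start site the peak had 74.9 ± 8.65 CPM in KO against 73.1 ± 3.295 in WT, a 0.998-fold difference with a 95% interval of 0.876 to 1.14. Summed over 5 peaks, Ezh2 had 106, 131, 105, 110 and 109 CPM in the KO libraries and 110, 99.9, 98.2, 87.9 and 95.9 CPM in the WT libraries. The groups overlapped, and the sum did not pass the test (1.14-fold, edgeR adjusted p = 0.233).

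The other lysine methyltransferases showed no peak that passed. Setd4, a SET domain protein gene with 14 peaks, had the highest sum in this role, 257 ± 20.3 CPM in KO against 263 ± 19.98 in WT (0.993-fold, 95% interval 0.911 to 1.08). The sums of Kmt2a, a founding member of the histone H3 lysine 4 methyltransferases (155 ± 6.09 and 152 ± 20.1 CPM), and of Ezh1, which can replace Ezh2 in its complex (63.9 ± 5.08 and 59.1 ± 7.10 CPM), differed by less than their spread. A promoter peak of Kmt5b, a histone H4 lysine 20 methyltransferase gene, had the second largest fitted change of the tested members (log2 fold change 0.75, 95% interval 0.13 to 1.38) but ranged from 3.19 to 19.8 CPM across the KO libraries. It did not pass (edgeR adjusted p = 0.212) except without Sample_2271_KO (1.07, adjusted p = 0.0210).

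**Figure D2:**
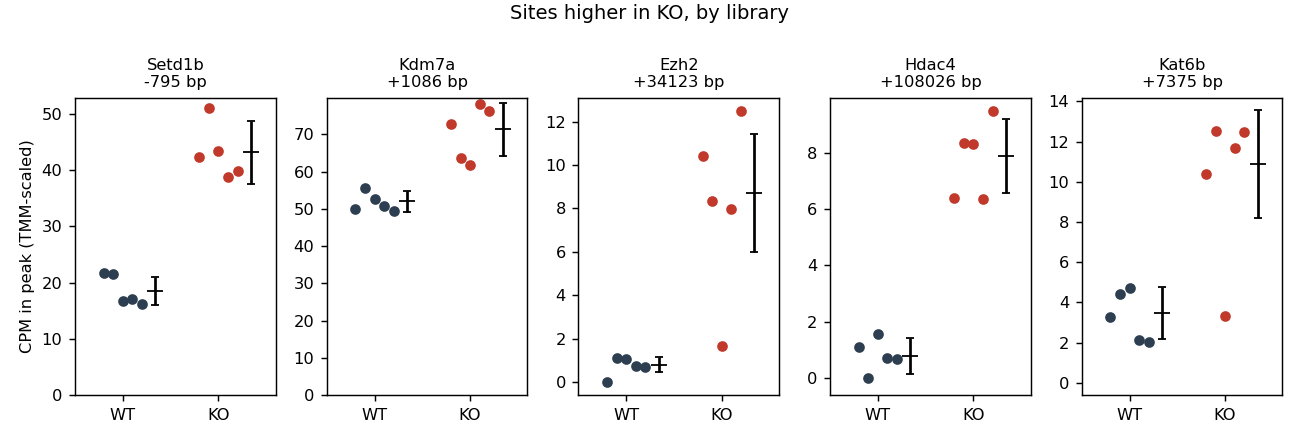
CPM per library of the 5 member peaks that were higher in KO, with each panel titled by gene and distance to the start site. Setd1b and Kdm7a passed the test, whereas Ezh2, Hdac4 and Kat6b were left out by the count filter and passed in the fit without it. Bars are mean ± SD (n = 4, a pair of libraries within sampling noise counted as 1). KO and WT libraries do not overlap for Setd1b, Kdm7a and Hdac4, the lowest KO value for Ezh2 (1.67 CPM) rests on 1 read, and Sample_2270_KO (3.33 CPM) lies among the WT libraries for Kat6b.

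Of the demethylases (17 genes, 84 peaks, 48 tested), 1 peak passed. Kdm7a encodes a Jumonji demethylase of histone H3 that binds methylated lysine 4 through a PHD finger, and covers 39136620 to 39206773 of chromosome 6 (minus strand). The peak chr6:39205120-39205687 lies inside the gene, 1086 bp from the start site and beyond the CpG-rich window printed above. It had 72.8, 63.6, 61.7, 78.2 and 76.3 CPM in the KO libraries and 50.0, 55.7, 52.8, 50.8 and 49.3 CPM in the WT libraries. All KO libraries were above all WT libraries, Sample_2270_KO and Sample_2269_KO by the smallest margins. The means were 71.3 ± 7.03 and 52.0 ± 2.86 CPM (SD, n = 4), a 1.40-fold rise (95% interval 1.23 to 1.599, edgeR adjusted p = 2.39e-04). At the start site the change was not shared, the peak there having 101 ± 6.16 CPM in KO against 108 ± 13.4 in WT (0.926-fold, 95% interval 0.815 to 1.05). The 12 other peaks of Kdm7a held 208 ± 9.15 and 214 ± 12.2 CPM together, and the gene sum, the highest among demethylases, was 279 ± 5.63 CPM in KO against 266 ± 10.2 in WT (1.04-fold, 95% interval 0.966 to 1.13). None of 7 other tested peaks within 100 kb passed (smallest edgeR adjusted p = 0.297).

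No demethylase peak was lower by the test. Of the tested members, the smallest fold change was that of a promoter peak of Kdm5b, a histone H3 lysine 4 demethylase gene, at 8.42 ± 2.90 CPM in KO against 12.3 ± 1.13 in WT (0.636-fold, 95% interval 0.453 to 0.887, edgeR adjusted p = 0.127). Kdm6b, which removes methyl groups from histone H3 lysine 27 and so opposes Ezh2, had a promoter peak at 2645 bp with 32.9 ± 6.50 and 40.6 ± 7.22 CPM (0.796-fold, adjusted p = 0.173). Its sum over 11 peaks was 219 ± 16.7 CPM in KO against 243 ± 14.7 in WT (0.901-fold, 95% interval 0.826 to 0.982, adjusted p = 0.248). Kdm6a, the X-linked enzyme of the same kind, had 72.5 ± 8.24 and 68.9 ± 6.37 CPM. KO and WT libraries overlapped in each of these 4 values. These genes were named after their values were seen, because of an unadjusted p under 0.05 or a related role.

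None of the 30 tested acetyltransferase peaks (10 genes, 43 peaks) passed by edgeR, and none had an unadjusted p under 0.05. Kat6b, a MYST family acetyltransferase on the plus strand of chromosome 14 from 21499770 to 21672478, had the highest sum of the role, 264 ± 25.6 CPM in KO against 274 ± 18.7 in WT. A peak in its first intron, chr14:21507145-21507342 at 7375 bp from the start site, was left out by the count filter. It had 13, 12, 2, 22 and 25 reads in the KO libraries and 3, 8, 9, 3 and 3 reads in the WT libraries. In CPM these are 10.4, 12.52, 3.33, 11.7 and 12.48 in KO and 3.26, 4.42, 4.70, 2.14 and 2.03 in WT. The other KO libraries were all above every WT library, but Sample_2270_KO was within the WT range. The means were 10.9 ± 2.71 and 3.46 ± 1.30 CPM (SD, n = 4), and without the count filter the peak was higher in KO (log2 fold change 1.63, edgeR adjusted p = 2.86e-05). None of 5 other tested peaks within 100 kb passed (smallest adjusted p = 0.404). Over all peaks of the gene the ratio was 0.964 (95% interval 0.886 to 1.05), whereas the sum of its peaks outside promoters was higher in KO (log2 fold change 0.36, edgeR adjusted p = 0.0431). That sum holds the intronic peak and is not separate support for it. The other 6 peaks of Kat6b together held 253 ± 27.5 CPM in KO against 270 ± 19.6 in WT. The paralogous coactivators Ep300 and Crebbp, which acetylate histone H3 lysine 27 at enhancers, had 201 ± 11.7 and 203 ± 10.7 CPM, and 112 ± 11.8 and 110 ± 8.75 CPM, in KO and WT. Their ratios were 0.971 (95% interval 0.890 to 1.06) and 1.02 (0.915 to 1.13).

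Deacetylase genes (16 genes, 70 peaks, 40 tested) had no peak that passed by edgeR, with 0 higher and 2 lower with an unadjusted p under 0.05. Hdac4, a class IIa deacetylase that represses MEF2 targets, covers 91928779 to 92180341 of chromosome 1 (minus strand) and had the highest sum of any member, 450 ± 41.9 CPM in KO against 451 ± 14.5 in WT. In its second intron the peak chr1:92072168-92072315, 108026 bp from the start site, was left out by the count filter. It had 8, 8, 5, 12 and 19 reads in the KO libraries and 1, 0, 3, 1 and 1 reads in the WT libraries. In CPM these are 6.40, 8.34, 8.33, 6.38 and 9.48 in KO and 1.09, 0, 1.57, 0.715 and 0.676 in WT, the count of 0 in Sample_2274_WT allowing up to 1.66 CPM (3 counts). All 5 KO libraries were above all WT libraries. The means were 7.89 ± 1.33 and 0.786 ± 0.646 CPM (SD, n = 4), and without the count filter the peak was higher in KO (log2 fold change 3.13, edgeR adjusted p = 3.84e-07). It made up 1.28% to 2.18% of the counts over Hdac4 in KO, and the gene sum did not follow it (1.01-fold, 95% interval 0.935 to 1.08). The next peak of the same intron, chr1:92069558-92069842, had the lower mean in KO without passing, at 14.7 ± 3.51 CPM in KO against 20.9 ± 1.87 in WT (log2 fold change -0.50, edgeR adjusted p = 0.116), and passed only without Sample_2271_KO (-0.73, adjusted p = 0.0236).

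Hdac9, another class IIa gene, is known for a role in regulatory T cells. No peak was annotated near its start sites, and its 2 intronic peaks were both left out by the count filter. Their sum was 7.20, 5.21, 10.0, 10.1 and 7.49 CPM in the KO libraries and 3.26, 3.86, 2.61, 2.14 and 4.73 CPM in the WT libraries. The groups did not overlap, with the lowest KO library within 1 CPM of the highest WT library. Of the 12489 tested gene sums, which do not include Hdac9, 262 had all KO libraries above all WT libraries and 142 all below. The means for Hdac9 were 7.85 ± 2.06 and 3.48 ± 1.01 CPM (SD, n = 4), and without the count filter the sum did not pass (2.38-fold, edgeR adjusted p = 0.0554). It became testable and passed without Sample_2269_KO, Sample_2273_WT, Sample_2274_WT or Sample_2277_WT (adjusted p 0.0160 to 0.0406). Without Sample_2275_WT, Sample_2276_WT or the 3 libraries of lowest total it was also testable and did not pass (adjusted p = 0.0830, 0.0661 and 0.0708). Leaving out a library lowers the number of libraries that the filter asks for, and the sum then entered through its higher KO libraries. These passes are therefore not separate support for a difference. Hdac11, the only class IV deacetylase, had the lowest level per kb of peak among the member genes with a start-site peak, and that peak stood at 7.20, 8.34, 6.67, 8.51 and 6.99 CPM in the KO libraries and 4.35, 17.7, 9.40, 13.6 and 11.5 CPM in the WT libraries. Sample_2273_WT was below every KO library and the other 4 were above, and the peak did not pass (0.640-fold, 95% interval 0.444 to 0.914, edgeR adjusted p = 0.181). Hdac3, the enzyme of the NCoR corepressor (33.3 ± 3.16 and 39.2 ± 3.69 CPM), and Hdac1, of the Sin3 and NuRD complexes (50.1 ± 3.04 and 48.0 ± 3.94 CPM), did not pass as gene sums (adjusted p = 0.547 and 0.883).

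Of 7 arginine methyltransferase genes with 16 peaks, 11 peaks were tested and none passed by edgeR (1 higher at an unadjusted p under 0.05). Prmt5, which makes symmetric dimethylarginine, had the highest sum, at 178, 173, 197, 163 and 161 CPM in the KO libraries and 145, 152, 165, 148 and 153 CPM in the WT libraries. Sample_2275_WT was above the 2 lowest KO libraries, and the sum did not pass (1.11-fold, 95% interval 1.01 to 1.22, edgeR adjusted p = 0.312). Its upstream peak at -1147 bp had 61.7 ± 5.72 and 51.9 ± 4.67 CPM (1.18-fold, adjusted p = 0.243). Prmt1, the main source of asymmetric dimethylarginine, had a sum of 141 ± 17.3 CPM in KO against 153 ± 9.89 in WT (0.919-fold, 95% interval 0.829 to 1.02).

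**Figure D3:**
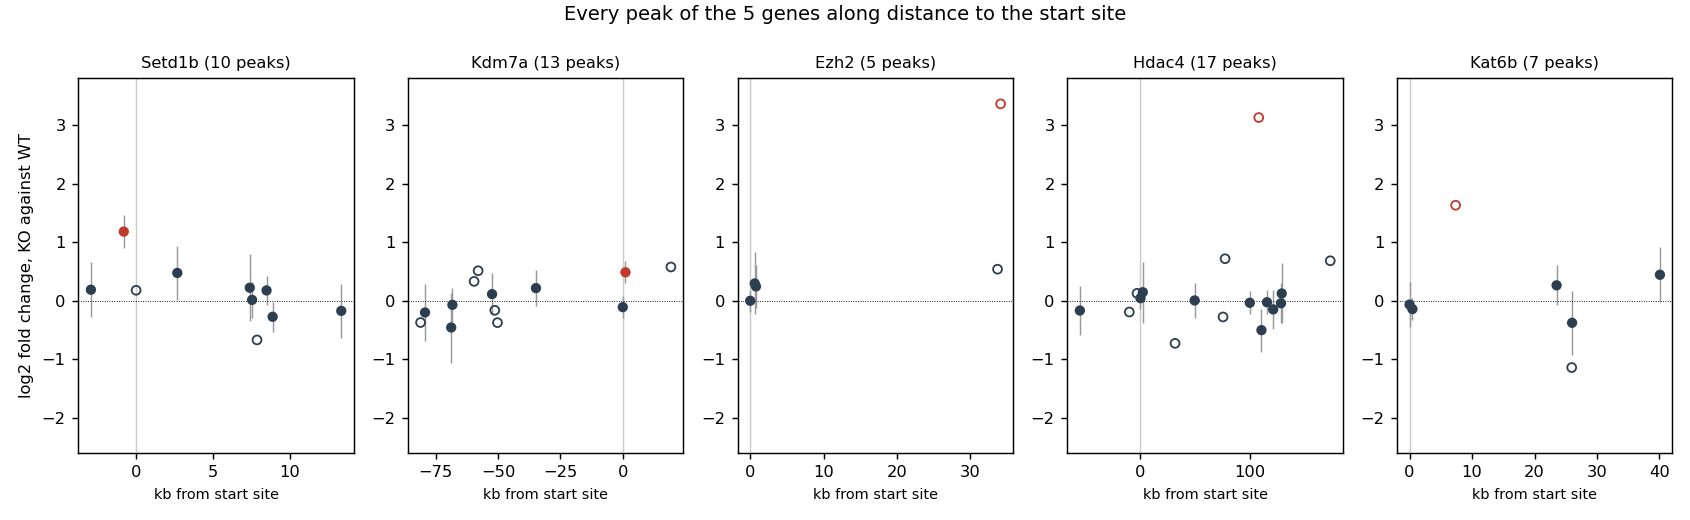
Log2 fold change, KO against WT, of every peak of Setd1b, Kdm7a, Ezh2, Hdac4 and Kat6b against distance in kb to the start site. Filled points were tested, with 95% intervals, open points are values fitted without the count filter, and red points passed; each gene has a single red point among 10, 13, 5, 17 and 7 peaks.

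At the start sites themselves no member passed the test, and most intervals were narrow, as they were over all start-site peaks. Among members, 58 peaks in 58 genes lay over the start site and 56 were tested, of which 0 passed by edgeR (0 higher and 3 lower with an unadjusted p under 0.05, those of Hdac11, Kdm4d and Setd6). Over all start-site peaks, 65 of 8811 passed (0.738%). An unadjusted p under 0.05 was found for 5.36% of the tested members and 6.95% of all tested start-site peaks. The 95% interval lay within a 1.5-fold change for 52 of the 56 (92.9%, against 91.1% of all tested start-site peaks). It lay within a 2-fold change for 55 (98.2% against 99.2%). Per length, the median start-site level was 94.6 CPM per kb of peak in members and 96.1 CPM per kb over all annotated start-site peaks. The highest were those of Kdm4b, a histone H3 lysine 9 demethylase gene (246 CPM per kb), Setd3 (239), Kmt5c (204), Prmt5 (199), Prmt1 (187) and Hdac4 (182). Levels fell gradually from there, and neighbours in the order overlapped in their library ranges. Hdac11 (31.5), Hdac8 (40.5), Kdm5d (48.2) and Kdm5c (61.0) were lowest, and 3 of these 4 genes are on a sex chromosome. Low levels were not shared by all sex-linked members. The X-linked Kdm6a stood at 114 CPM per kb, above the member median, and the X-linked Hdac6 was not among the lowest 4. The start-site peak of Setd3 also lies over the start of the neighbouring gene Ccnk.

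**Figure D4:**
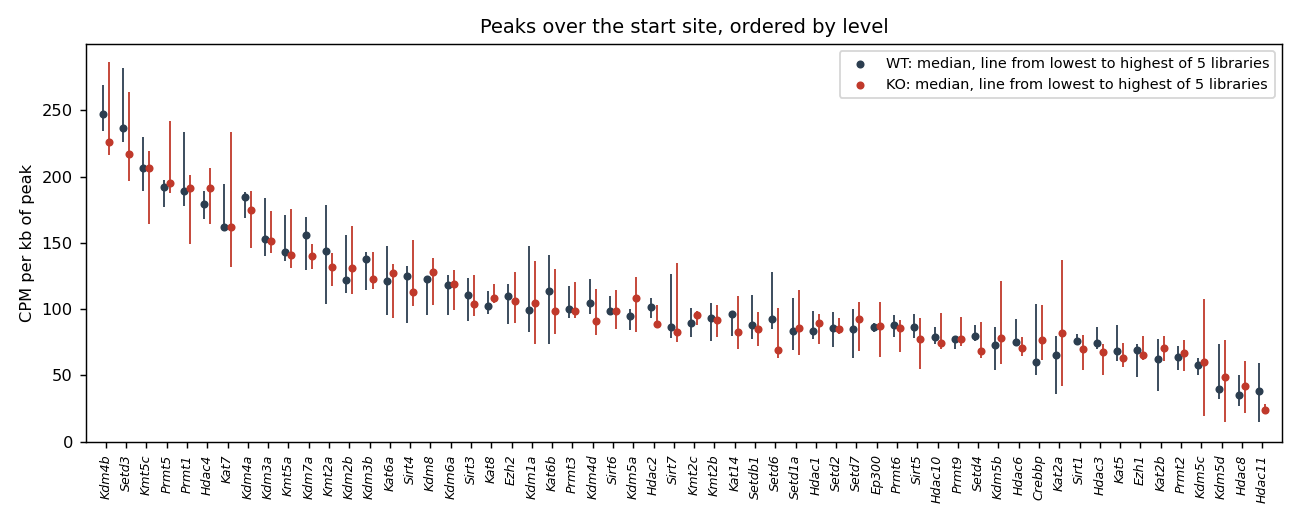
Accessibility over the start site, in CPM per kb of peak, of the 58 genes with such a peak, ordered by mean level. Points are medians and lines run from the lowest to the highest of 5 libraries in WT and KO. Levels run from Kdm4b (mean 246) down to Hdac11 (mean 31.5). The KO and WT ranges overlap in all 58 genes, and overlap was usual. Of all 8811 tested start-site peaks, only 68 had all KO libraries above all WT libraries and 57 all below.

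Summed per gene, 66 of the 69 genes were tested (Hdac9, Prmt7 and Setd5 were not) and 0 passed by edgeR, with 3 higher and 1 lower with an unadjusted p under 0.05. Over all 12489 tested genes, 1.65% were higher and 0.536% lower. An unadjusted p under 0.05 was found for 6.06% of the tested member sums and 12.5% of all tested sums. The 95% interval lay within a 1.5-fold change for 63 of the 66 sums (95.5%, against 87.5% of all tested sums). Setd1b came closest to the threshold, with 179, 192, 183, 175 and 188 CPM in the KO libraries and 165, 170, 155, 149 and 154 CPM in the WT libraries. KO libraries did not overlap WT libraries, and the difference was 1.15-fold (95% interval 1.05 to 1.26, edgeR adjusted p = 0.0809). Setd1b was the only tested member sum without overlap. Of all 12489 tested sums, 262 had all KO libraries above all WT libraries and 142 all below. The Setd1b sum was followed through the alternatives. It passed when promoter peaks alone were summed (log2 fold change 0.74, adjusted p = 1.99e-07) or without Sample_2274_WT (0.25, adjusted p = 0.0406). Over the 22 alternatives its log2 fold change ran from -0.08 to 0.74. The promoter sum holds the upstream peak that passed by itself, and the other 9 peaks of Setd1b together held 141 ± 5.09 CPM in KO against 141 ± 5.30 in WT. By role, the sums below their WT level were 13 of 15 for deacetylases (median log2 fold change -0.12), 8 of 10 for acetyltransferases (-0.04), 9 of 17 for demethylases, 8 of 18 for lysine methyltransferases and 2 of 6 for arginine methyltransferases. Over all tested genes 51.7% were below, with a median of -0.01, and none of the member sums passed. For deacetylases the number was 13 with relative log expression size factors, 14 with loess offsets, 11 of 15 with libraries thinned to the smallest total and 11 of 16 without Sample_2274_WT. It was 13 of 16 without the count filter, where Hdac9 enters as higher in KO. Genes read in the same libraries are not replicates, and these refits reuse the same counts, so they are not separate support. Whether a role leaned to 1 side was not tested.

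**Figure D5:**
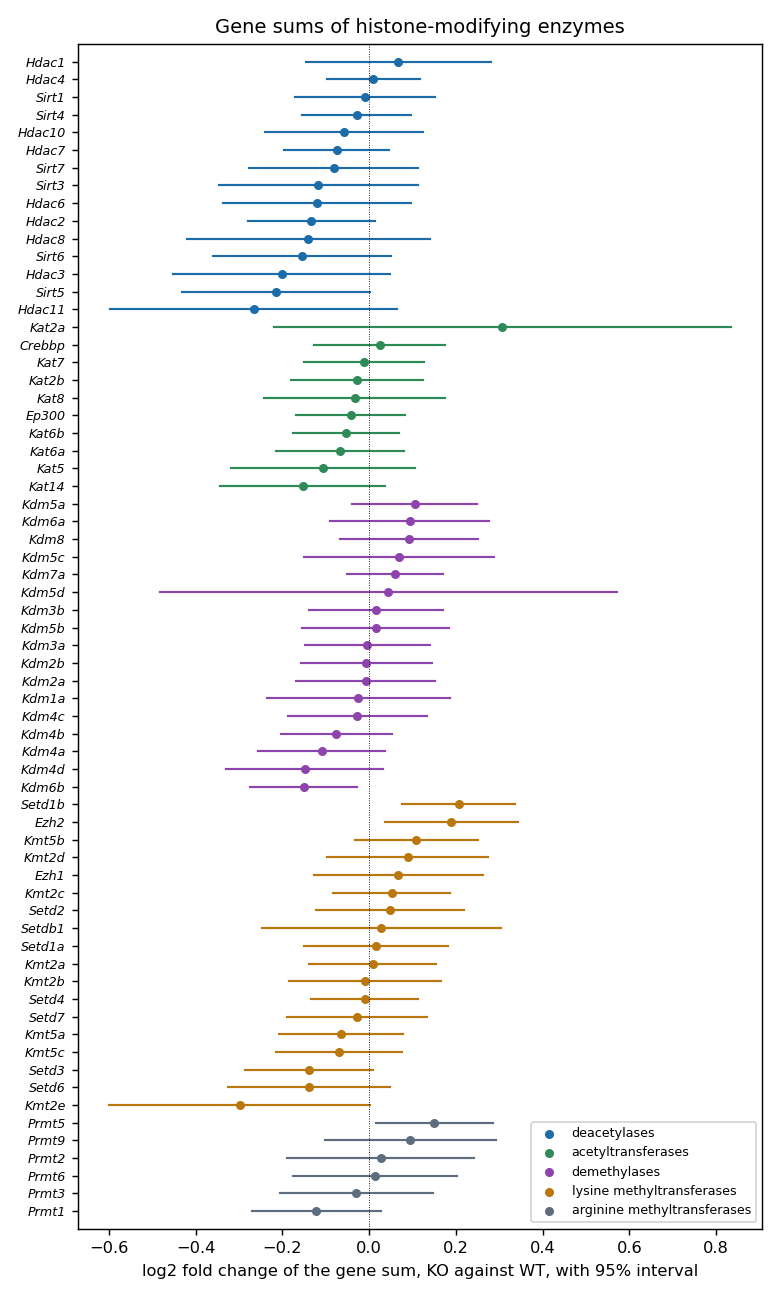
Log2 fold change with 95% interval of the summed peaks of each of the 66 tested genes, KO against WT, coloured by role and ordered within it. Sums ran from -0.30 (Kmt2e) to 0.31 (Kat2a), and no sum passed the test.

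The partners of these enzymes were read from 7 lists of other chromatin genes, 170 genes in all, of which 161 were in the annotation with 849 peaks. Of their 537 tested peaks, 18 were higher in KO (3.35%) and 7 lower (1.30%), beside 2.94% and 0.911% of all peaks, and the median log2 fold change of the lists ran from -0.01 to 0.03. Subunits of deacetylase corepressors had 5 higher peaks and 1 lower of 98 (5.10% and 1.02%). Tbl1xr1, a WD40 subunit of the NCoR complex, had distal peaks that were 3.27-fold (29.9 ± 2.29 against 8.98 ± 1.30 CPM, edgeR adjusted p = 5.06e-12) and 1.77-fold higher. Its paralogue Tbl1x (1.54-fold), Mta3 (1.47-fold) and Mbd2 (1.896-fold), both of NuRD, had 1 higher peak each, and an intronic peak of Arid4a was lower (0.577-fold).

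Polycomb genes had 4 higher peaks and 2 lower of 108 (3.70% and 1.85%, beside 2.94% and 0.911% of all tested peaks). Asxl2, a partner of the deubiquitinase Bap1, had 2 intronic peaks that were 3.01-fold (18.1 ± 1.39 against 5.43 ± 2.21 CPM, edgeR adjusted p = 9.42e-07) and 1.84-fold higher. Distal peaks of Phf19 (1.79-fold) and Cbx7 (1.45-fold) were higher as well. Aebp2, an accessory subunit of Ezh2's complex, was the nearest annotated gene of 2 lower peaks, both far from its start site. They lie at -60688 bp (annotated as intronic, 0.6003-fold) and at 99304 bp (distal intergenic, 0.659-fold). Subunits of the several COMPASS complexes had 1 higher peak (Hcfc2, 1.92-fold) and 1 lower (Bod1l, 0.536-fold) of 29, 3.45% each. Other histone methyltransferases had 2 higher of 51 (3.92%). These were peaks of the lysine 36 enzyme Nsd3 (1.96-fold, 48.5 ± 3.82 against 24.7 ± 2.58 CPM, edgeR adjusted p = 3.55e-09) and the lysine 79 enzyme Dot1l (1.86-fold).

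Readers of acetyl-lysine and methyl-lysine had 5 higher and 2 lower of 117 (4.27% and 1.71%, beside 2.94% and 0.911% of all tested peaks). An intronic peak of Mllt3, whose YEATS domain binds acetyl-lysine, had the largest change of any list, 19.7 ± 6.52 CPM in KO against 3.05 ± 1.24 in WT (SD, n = 4), and was 6.54-fold higher (edgeR adjusted p = 2.53e-12). Phf6 had 2 higher peaks (2.01-fold and 1.79-fold), and Baz2b (1.80-fold) and Baz1a (1.72-fold) had 1 each. Peaks of Zmynd8 (0.645-fold) and Zmynd11 (0.691-fold) were lower. The other acetyltransferases and their subunits had 1 higher (Epc2, 1.29-fold) and 1 lower (Jade1, 0.516-fold) of 114, 0.877% each. The other demethylases had 0 of 20 by edgeR. As gene sums, 155 of the listed genes were tested, and 4 were higher and 1 lower. Over all tested genes, 1.65% were higher and 0.536% lower. Phf6 (1.38-fold), Asxl2 (1.37-fold), Tbl1x (1.21-fold) and Mllt3 (1.19-fold) were higher and Zmynd8 (0.862-fold) was lower.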

How the data were processed

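ATAC-seq libraries of naive CD4 T cells (single reads of 75 bp, per the labels' protocols) were given as a deposited table of raw read counts per peak, with a deposited annotation of each peak's class, nearest gene and distance to its start site in bp. Per the submitters' processing notes the tools were bcl2fastq 2.20, Trimmomatic 0.36, Bowtie2 2.3.5, Picard, SAMtools 1.9, MACS2 2.1.2, deepTools 3.5.2 and 3.3.0, ChIPseeker 1.18.0, DESeq2 1.22.2 and R 3.5.3, with the build mm10. Not given in the sources used here are any shift to the cut site, the handling of duplicates and the pooling of libraries for peak calls. Removal of duplicates would cap dense peaks, and a shift would move peak borders slightly.

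Counts of the 10 libraries (5 KO, 5 WT, no pairing or batch in the labels) were fitted for all 61581 peaks with edgeR 4.0.16 in R 4.3.3 (TMM, filterByExpr by group, quasi-likelihood F test, Benjamini-Hochberg over 34910 tested peaks, threshold 0.05), and so were sums per symbol. The annotation covered 61571 of them, the other 10 being mitochondrial. Of these, 7971 had no symbol; RefSeq named 7932, and 0 fell under the naming rule. No peak was annotated to Hdac5, Sirt2, Kdm1b, Setdb2 or Prmt8, so these genes were not analysed here. One marker list is not reported here. CPM are counts scaled to 1000000 TMM-normalised counts in tested peaks. The 95% intervals come from the quasi-likelihood fit. Groups were called not overlapping where all KO libraries lay on one side of all WT libraries. The fit was tested on simulated counts. Members, gene lists and tests were chosen with earlier results of these data known. Genes named are those with a peak or sum past the threshold, the largest and smallest changes without overlap, and the highest sum of each role. Other member genes named, the intronic peaks of Ezh2, Hdac4 and Kat6b among them, were chosen after their values were seen. Alternatives were other scalings (relative log expression, loess), DESeq2 1.42.0 and limma-voom (limma 3.58.1), no filter or a mean count of 20, leaving out libraries, merging libraries within sampling noise, thinning, and other peak sets per gene. Depth, not replicate number alone, limits precision: the median peak held 5 to 17 counts.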

Additional observations from a re-analysis of the deposited data

Results flagged for a closer look

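In 58 groups of 5 libraries examined for a value far from the others, 3 were marked by Dixon's ratio of gap to range, where chance marks about 1 in 20 groups. The intronic Kat6b peak stood at 3.33 CPM in Sample_2270_KO and at 10.4 to 12.52 CPM in the other 4 KO libraries. The peak over the Setd6 start site stood at 42.4 CPM in Sample_2273_WT and at 28.2 to 31.1 CPM in the other 4 WT libraries. The Ezh2 gene sum was 131 CPM in Sample_2269_KO and 105 to 110 CPM in the other 4 KO libraries.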

How the results depend on the processing

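The Setd1b and Kdm7a peaks passed the test under all 20 alternatives run (log2 fold changes 1.12 to 1.62 and 0.44 to 0.55, largest adjusted p = 9.88e-08 and 0.0263). The intronic peaks of Ezh2, Hdac4 and Kat6b were refitted under 18 alternatives combined with no count filter, a combination added after seeing the data. They passed in each (2.97 to 3.53, 2.77 to 3.63 and 1.496 to 2.07, largest adjusted p = 0.00256, 0.0146 and 0.0174). These peaks had been picked because they passed without the filter in the same counts, so these passes are not separate support for a difference. The number of member peaks higher in KO, 2 of 196 tested, was 5 of 314 without the count filter (1223 of 61581 over all peaks). It was 5 of 233 without the 3 libraries of lowest total (984 of 41951 over all peaks). With libraries within sampling noise summed it was also 5 of 233 (1078 of 41267). When 1 library was left out it was 2 to 4, with 4 without Sample_2270_KO or any single WT library. Over all peaks that number ran from 780 of 35754 to 1042 of 35719. With fewer libraries the filter asks for fewer above its cutoff, so a peak can enter through the group where it is high. The other alternatives gave 2. Member peaks lower in KO, 0 by edgeR, numbered 0 to 1 when 1 library was left out (1 without Sample_2271_KO) and 0 otherwise, DESeq2 and limma-voom included. Gene sums higher in KO, 0 by edgeR, numbered 1 with promoter peaks alone (Setd1b) and 1 with peaks outside promoters alone (Kat6b, whose log2 fold change turned from -0.05 to 0.36). Both of these sums hold the peak of that gene described above. When 1 library was left out the number was 0 to 2 (1 without Sample_2269_KO, Sample_2273_WT or Sample_2277_WT, 2 without Sample_2274_WT). Hdac9 was among them in these 4 settings, having entered through its higher KO libraries. No gene sum was lower in KO under any alternative run. No paired analysis was possible because the labels give KO and WT libraries no shared numbers. Depth limits the low peaks most: members left out by the filter had a median of 4.17 CPM.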

Other observations

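Sex-linked members were also summed by chromosome. The X-linked members (15 peaks in 4 genes) summed to 162 to 212 CPM in the KO libraries and 183 to 209 CPM in the WT libraries. The 2 peaks of Kdm5d, the Y-linked histone H3 lysine 4 demethylase, held reads in every library, 6.67 to 10.4 CPM in KO and 6.27 to 11.95 CPM in WT. The labels give no sex.

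Further library pairs of 1 group also agreed within sampling noise by the same chi-square test, namely Sample_2270_KO with Sample_2272_KO (p = 0.469), Sample_2270_KO with Sample_2271_KO (p = 0.0561) and Sample_2273_WT with Sample_2277_WT (p = 0.370). They were kept apart because each has a partner from which the other differed. Sample_2270_KO and Sample_2273_WT are the libraries with the fewest counts, where the test has the least power.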
